A study of Mus musculus with 4 samples.

Results

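The replication-dependent histone genes are the clustered genes for the linker histone H1 and the core histones H2A, H2B, H3 and H4. They were taken as the protein-coding genes whose symbols begin with Hist1h, Hist2h, Hist3h or Hist4h. GENCODE M21 annotates 67 such genes in the mouse, and 54 of them were found among the 37620 genes of the deposited table. Of these 54, 14 reached a CPM (the estimated count relative to the total of its library) of at least 0.5 in 2 or more libraries and are the genes reported here. They were 1 H1 gene, 2 H2A genes, 6 H2B genes, 2 H3 genes and 3 H4 genes.

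RNA sequencing was performed on medium spiny neurons, the projection neurons of the striatum, sorted by EGFP fluorescence from male FVB/NJ mice aged 5 to 6 months. D1 cells (direct pathway) came from mice with a Drd1-EGFP reporter and D2 cells (indirect pathway) from mice with a Drd2-EGFP reporter, so cell type and reporter line cannot be told apart. Hemizygous BACHD mice, labelled Tg(Htt*97Q)IXwy, carry a bacterial artificial chromosome with full-length mutant huntingtin of 97 glutamines under the Htt regulatory sequence of that chromosome, a model of Huntington's disease, and were compared with wild-type (WT) littermates. Cell type (D1 or D2) crossed with genotype (BACHD or WT) gave 4 groups, each a pool of cells from 4 animals sequenced as 1 library, and every group carried an EGFP reporter. The variation between pools of a group was therefore not measured. Where 4 values follow each other below, those of D1 cells precede those of D2 cells, and within a cell type WT precedes BACHD.

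Most transcripts of these genes are made in S phase, when new DNA is packed into nucleosomes. Their mRNAs typically end in a conserved stem-loop rather than a poly(A) tail, and the stem-loop is bound by SLBP, which directs 3' end processing and translation and governs decay. Some of the genes also give polyadenylated mRNAs from signals downstream of the stem-loop, a form described in differentiated cells that no longer divide. Neurons otherwise rely on replication-independent histones, such as H3.3 from H3f3a and H3f3b, for exchange of nucleosomes. Whether the libraries were made by poly(A) selection or by ribosomal RNA removal is not given in the sources used here.

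The stem-loops of the genes at the centre of the results are shown first, because the annotated transcripts of most of them run on past this element. They are from GENCODE M21 transcripts on GRCm38, on the strand of the gene, with the 16 bases of the stem-loop in capitals and 5 bases on either side.
Hist1h1c, chr13:23739507-23739532, plus strand: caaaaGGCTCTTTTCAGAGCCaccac
Hist3h2a, chr11:58955167-58955192, plus strand: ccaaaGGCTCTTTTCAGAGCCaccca
Hist3h2ba, chr11:58949344-58949369, plus strand: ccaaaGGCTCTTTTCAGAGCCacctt
Hist2h3c1, chr3:96247322-96247347, plus strand: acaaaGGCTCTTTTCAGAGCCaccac
Hist1h4i, chr13:22040961-22040986, minus strand: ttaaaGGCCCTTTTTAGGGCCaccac
Hist2h4, chr3:96262934-96262959, minus strand: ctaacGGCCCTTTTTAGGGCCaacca
The H1, H2A, H2B and H3 genes in this set share the same 16 bases, and the 2 H4 genes share a stem with other bases. An annotated transcript continues for 840 bases after the stem-loop in Hist1h1c, 1643 in Hist3h2a, 169 in Hist3h2ba, 1162 in Hist2h3c1, 330 in Hist1h4i and 1257 in Hist2h4.

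Detection was concentrated in few genes. The 14 reported genes held 98.1% of the CPM summed over the 54 genes, and Hist3h2a, Hist3h2ba, Hist1h2bc and Hist1h1c held 78.0%. Of the other 40 genes, 6 were listed at 0 in every library and 34 had at least a fraction of a count, with a highest CPM of 0.532 (Hist1h2ac in D1 BACHD). The genes just inside the rule were Hist1h4k and Hist1h2br, with second-highest CPM values of 0.606 and 0.752, and those just outside were Hist1h2ac at 0.472 and Hist1h2bq at 0.449. The large cluster on chromosome 13 had 54 annotated genes, 43 in the table and 7 reported. The cluster on chromosome 3 had 10 annotated genes, 9 in the table and 5 reported, and on chromosome 11 both genes, Hist3h2a and Hist3h2ba, were reported.

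Levels were compared between genes in FPKM, fragments scaled by transcript length and by library size. By type, H2B genes took 58.4% of the summed FPKM of the 54 genes, H2A genes 23.6%, H1 genes 8.76%, H4 genes 7.06% and H3 genes 2.21%, over the genes in the table. The highest level was that of Hist3h2ba, an H2B gene (chr11:58948920-58949533), at 36.2 FPKM in WT and 30.9 in BACHD D1 cells and 31.2 in WT and 34.7 in BACHD D2 cells, at the 80.4th percentile of the 14537 genes tested. Hist1h2bc, another H2B gene (chr13:23684199-23692908), had 30.1, 24.4, 29.5 and 30.1 FPKM in the same order. The range of Hist3h2ba lay just above that of Hist1h2bc. The order between these genes also depends on transcript length, since the deposited FPKM of Hist1h2bc rests on about 736 bases while its longest M21 transcript has 1156.

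Hist3h2a, which encodes an H2A and lies beside Hist3h2ba on chromosome 11 (58954685 to 58956830), had 20.9, 20.2, 21.6 and 22.1 FPKM. It varied least of the 14 genes, its highest CPM being 1.09 times its lowest. Hist1h1c, which encodes the linker histone H1.2 (chr13:23738808-23740367), had 11.7, 8.33, 11.4 and 10.3 FPKM. These 4 genes occupied separate ranges, and all of them had a mean above 10 FPKM.

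The remaining genes were lower. Hist2h2aa1 (H2A) lay between 6.00 and 6.66 FPKM. Hist1h4i (H4) lay between 3.44 and 4.68 and Hist1h2bk (H2B) between 2.96 and 3.94, so their order is not separated by the spread over libraries. Hist1h2be (H2B, 2.50 to 2.92), Hist1h4k (H4, 1.20 to 2.77) and Hist2h2be (H2B, 1.73 to 1.99) followed with ranges that overlap from gene to gene. The H3 genes Hist2h3c2 (1.14 to 1.58) and Hist2h3c1 (0.68 to 1.92) and the H4 gene Hist2h4 (0.88 to 1.62) could not be ordered. Hist1h2br (H2B) was lowest, at no more than 0.40 FPKM.

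**Figure D1:**
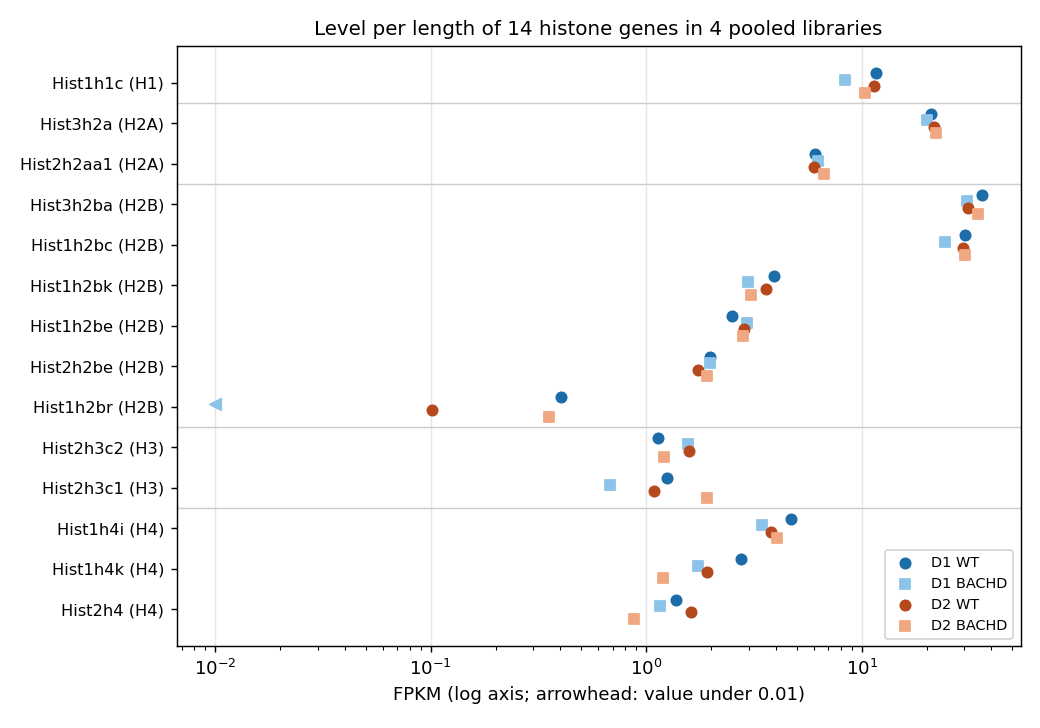
FPKM (log axis) of the 14 reported genes in each of the 4 libraries, grouped by histone type; circles are WT and squares BACHD, blue D1 and orange D2, and an arrowhead marks a value under 0.01. Hist3h2ba, Hist1h2bc, Hist3h2a and Hist1h1c stand above the others, and Hist1h2br spreads most.

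In total the 54 genes gave 129 and 110 FPKM in WT and BACHD D1 cells, and 122 and 124 FPKM in WT and BACHD D2 cells. The replication-independent histone genes gave 680, 611, 627 and 635 FPKM in the same order. Within that list H3f3a averaged 238 FPKM, H2afz, the gene of the variant H2A.Z, 148, and H3f3b 84.6. The H3 genes of the clusters together gave 2.54, 2.24, 2.70 and 3.22 FPKM, over 7 of the 12 annotated genes, since the other 5 were not analysed here. The measured replication-independent H3 genes were above this sum in every library, on the FPKM scale. The unknown library selection limits the comparison, because mRNAs without a poly(A) tail would be lost in a poly(A) selection.

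The annotated 3' ends differed between the reported genes and the rest. An AATAAA or ATTAAA, the usual polyadenylation signals, lay within 40 bases of the end of an annotated transcript in 9 of the 14 reported genes and in 7 of the other 40. Expressed the other way, 56.3% of the 16 genes with such a signal were reported and 13.2% of the 38 without. The stem-loop pattern itself (GGNNCTTTTNAGNNCC, searched on the sense strand) was found in 10 of 14 reported genes and 27 of 40 others. Transcripts ran more than 100 bases past it in 8 of 14 and 10 of 40. The median longest transcript was 1358 bases in the reported genes and 524 in the others. The rule for reporting uses CPM, which is not scaled by length, so a longer transcript reaches it at a lower FPKM. Hist1h2br was thus reported at a mean of 0.216 FPKM, whereas Hist1h4j at 0.540 was not. These are descriptions of annotated transcripts, and the libraries were not searched for reads past the stem-loop. The longest transcript of a gene was as short as 312 bases among the reported genes and 384 among the others. An annotated transcript that stops before the 3' end of the mRNA could show neither element, and such transcripts were not set apart. No cause of the difference was tested.

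The 4 reported genes without a match ranged from Hist1h2bc, among the highest, to Hist1h2br, the lowest, with Hist2h2be and Hist1h4k between. Of these, Hist2h2be and Hist1h2br had a polyadenylation signal near the end. Among the stem-loops found, both reported H4 genes had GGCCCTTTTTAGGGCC, whereas 6 H4 genes with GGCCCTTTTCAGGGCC and 2 with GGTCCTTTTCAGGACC were not reported. A stem-loop of these sequences is shared by genes on either side of the detection rule, as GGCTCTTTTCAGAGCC was found in 3 H1 genes, of which 1 was reported, and in 8 H2A genes, of which 2 were.

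**Figure D2:**
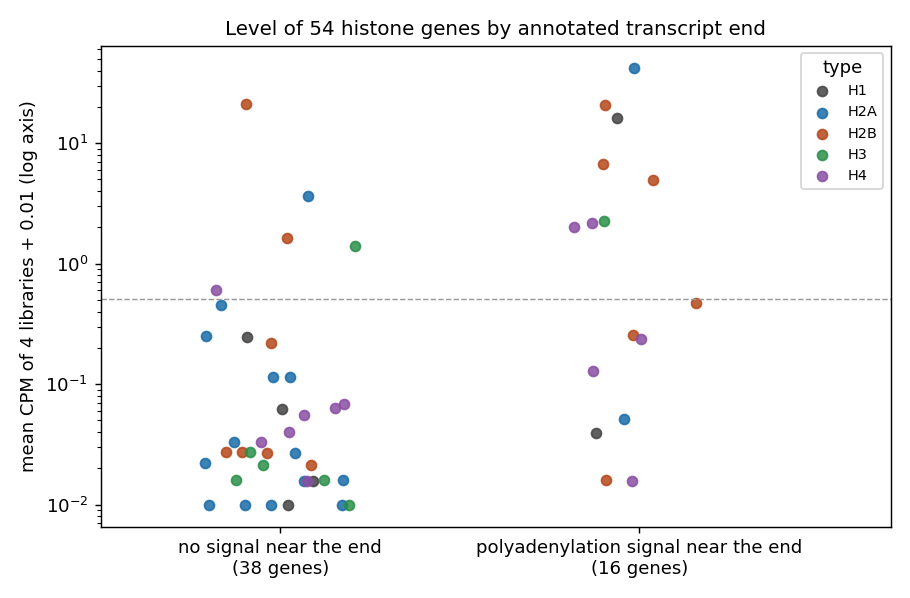
Mean CPM over the 4 libraries plus 0.01 (log axis) for the 54 genes, split by whether an AATAAA or ATTAAA lies within 40 bases of the end of an annotated transcript; each point is a gene coloured by histone type, horizontal scatter has no meaning, and the dashed line marks 0.5 CPM, under which lies the mean of 1 reported gene, Hist1h2br. Of 16 genes with a signal 9 were reported, and of 38 without a signal 5 were.

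Many H2A and H2B genes lie head to head, with starts facing away from each other across a short shared promoter. Of 8 such pairs in the table, 4 had under 3 estimated counts for either gene in every library and show no order. In the other 4 the H2B gene had the higher mean FPKM in 4. In the 3 pairs with a reported gene, the H2B gene was higher in 4 of 4 libraries. That order follows in part from the rule for reporting, because in each of these pairs only the H2B gene was reported. Hist1h2bc averaged 28.5 FPKM and its partner Hist1h2ac 0.177. Hist1h2bk averaged 3.39 and Hist1h2ah 0.442, and Hist2h2be averaged 1.90 and Hist2h2ac 0.195. The members of a pair were thus measured at levels far apart although they share the sequence between their starts.

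The shared intervals of 2 of these pairs are printed in the direction of the H2B gene, from RefSeq promoters on GRCm38.p6, with 3 elements in capitals on either strand: the TATA box as TATAAA (or its reverse complement TTTATA), the CCAAT box (or its reverse complement ATTGG) and the octamer of histone H2B promoters as ATTTGCAT.
Hist1h2ac and Hist1h2bc, chr13:23683960-23684198, plus strand: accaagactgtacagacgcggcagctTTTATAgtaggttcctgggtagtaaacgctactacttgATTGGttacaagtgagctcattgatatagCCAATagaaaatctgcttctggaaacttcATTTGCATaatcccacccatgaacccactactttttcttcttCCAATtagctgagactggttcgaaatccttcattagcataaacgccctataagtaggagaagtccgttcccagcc
Hist2h2ac and Hist2h2be, chr3:96220881-96221071, plus strand: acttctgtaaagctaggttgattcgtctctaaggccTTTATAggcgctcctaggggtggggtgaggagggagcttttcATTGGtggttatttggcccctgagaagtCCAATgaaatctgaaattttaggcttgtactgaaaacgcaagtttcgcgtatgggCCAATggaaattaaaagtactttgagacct
Each interval holds 3 CCAAT matches and 1 TATAAA match, and of these 2 intervals the octamer is in that of Hist1h2bc. The interval of Hist1h2ah and Hist1h2bk, not printed, holds 3 CCAAT matches, the octamer and 0 TATAAA matches. Intervals were cut to the bases between the innermost GENCODE and RefSeq starts. They cover 177 bases for this pair, with M21 starts 302 apart, and 191 for Hist2h2ac and Hist2h2be, with starts 239 apart. A wider search, of the 250 bases before the start, found TATAAA for Hist1h2bk and the octamer for Hist2h2ac. In the 250 bases before the start, on either strand, CCAAT was present in 40 of the 50 histone genes with a promoter entry (80.0%) and in 34.5% of all 27025 promoters. TATAAA was present in 25 of the 50 (13.0% of all promoters) and ATTTGCAT in 11 of the 50 (1.61% of all promoters). The 11 octamer promoters were 7 of 16 H2A and 4 of 11 H2B genes, and none of the H1, H3 or H4 promoters matched. Of the 11 reported genes with an entry, 7 held the CCAAT box, 4 the TATA box and 2 the octamer.

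For the question of what differs between BACHD and WT neurons, ratios were taken within each cell type after TMM scaling of the libraries. In D1 cells 10 of the 14 histone genes read lower in the BACHD library than in the WT library, as did 49.4% of all genes tested. In D2 cells 6 of 14 did, and 47.6% of all genes tested. The counts of the 54 genes summed to 5566 in the WT and 4843 in the BACHD library of D1 cells, a log2 ratio of -0.18 (95% counting interval -0.24 to -0.13). In D2 cells they were 5797 and 5803, a log2 ratio of 0.02 (-0.03 to 0.07). Such intervals cover counting error at most. They can be too narrow even for that, since copies made by PCR are not independent molecules. The division of reads between genes that share sequence is not covered either. Less RNA per cell cannot be told apart from another mix of cells.

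Of the 4 abundant genes, Hist1h1c had the lowest ratio in either cell type. In D1 cells it had 18.2 CPM in WT and 13.0 in BACHD, and in D2 cells 17.7 and 16.1, so both BACHD libraries lay below both WT libraries. The log2 ratio was -0.48 (-0.65 to -0.32) in D1 cells and -0.14 (-0.29 to 0.01) in D2 cells. Hist1h2bc had 22.1 CPM in WT and 18.0 in BACHD D1 cells, and 21.7 and 22.2 in D2 cells. The log2 ratio was -0.30 (-0.44 to -0.16) in D1 cells and 0.02 (-0.11 to 0.15) in D2 cells, so only the D1 BACHD library stood apart. Hist3h2ba had 22.5 and 19.2 CPM in D1 WT and BACHD and 19.3 and 21.5 in D2, with log2 ratios of -0.22 (-0.36 to -0.09) and 0.15 (0.01 to 0.28). Hist3h2a, the gene with most counts, had 41.7, 40.2, 42.9 and 43.9 CPM and log2 ratios of -0.05 (-0.15 to 0.05) and 0.03 (-0.06 to 0.12).

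Of the 3 H4 genes, which are low, Hist2h4 and Hist1h4k read lower in BACHD in both cell types. Hist2h4 had 2.21 CPM in WT and 1.86 in BACHD D1 cells, and 2.61 and 1.41 in D2 cells, with log2 ratios of -0.24 (-0.70 to 0.21) in D1 and -0.89 (-1.36 to -0.43) in D2 cells. Hist1h4k had 0.864, 0.532, 0.606 and 0.365 CPM, also lower in both BACHD libraries, but its intervals included no change in either cell type. Hist1h4i had 2.52, 1.84, 2.04 and 2.19 CPM, with log2 ratios of -0.45 (-0.90 to -0.01) in D1 and 0.09 (-0.33 to 0.52) in D2 cells. The counts of all 12 H4 genes summed to 264 in WT and 198 in BACHD D1 cells, and to 264 and 191 in D2 cells. Their log2 ratios were -0.40 (-0.67 to -0.13) and -0.45 (-0.73 to -0.18). Without Hist2h4 they were -0.49 (-0.84 to -0.15) and -0.18 (-0.53 to 0.17). Of the other sums by type, those of H1 were -0.48 (-0.64 to -0.32) and -0.16 (-0.30 to -0.01), of H2A -0.03 (-0.12 to 0.06) and 0.04 (-0.05 to 0.13), of H2B -0.20 (-0.28 to -0.11) and 0.07 (-0.01 to 0.15), and of H3 -0.32 (-0.68 to 0.05) and 0.41 (0.11 to 0.72) in D1 and D2 cells. Without Hist2h3c1 the H3 values were 0.34 (-0.21 to 0.89) and -0.32 (-0.85 to 0.20).

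The remaining H2A and H2B genes, leaving aside Hist1h2br, had intervals that included no change in both cell types. Hist1h2bk had 1.90 CPM in WT and 1.43 in BACHD D1 cells, and 1.73 and 1.48 in D2 cells, lower in both BACHD libraries. Hist2h2aa1 had 3.53, 3.63, 3.46 and 3.85 CPM and Hist2h2be 5.18, 5.20, 4.54 and 4.99, both slightly higher in BACHD after scaling. Hist1h2be had 6.05, 7.04, 6.85 and 6.82 CPM.

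**Figure D3:**
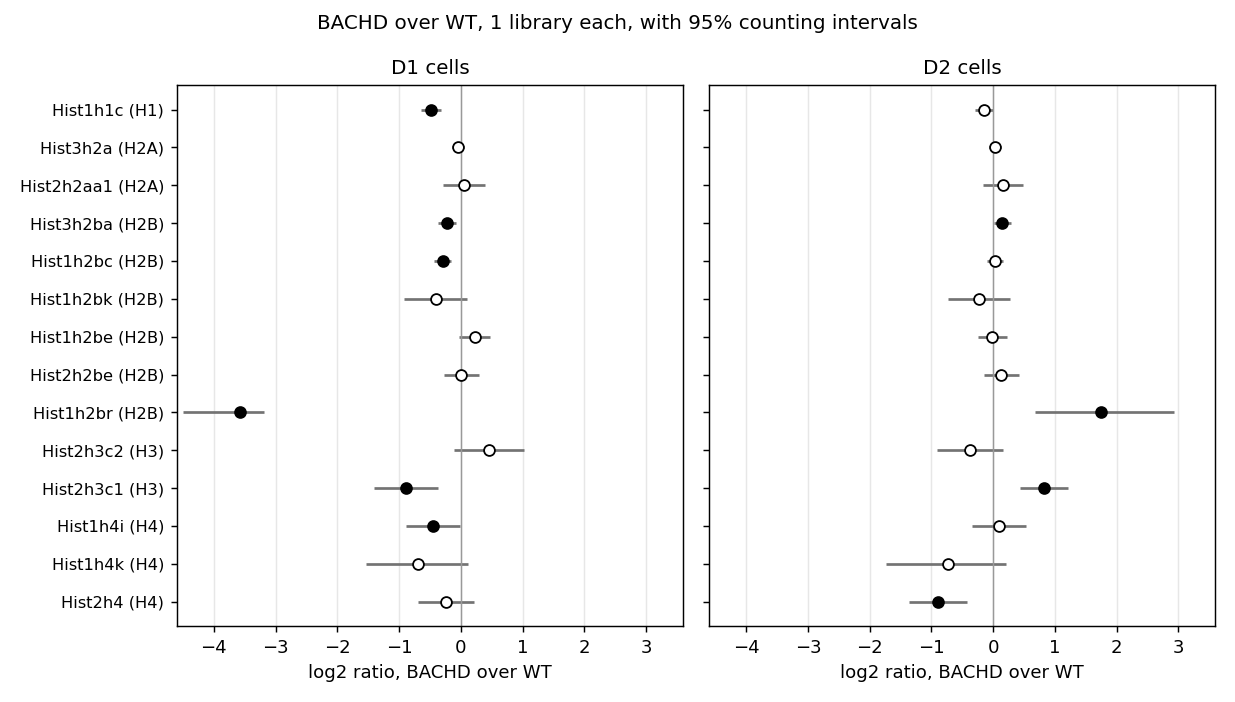
The log2 ratio of BACHD to WT for the 14 reported genes in D1 cells (left) and D2 cells (right), 1 library each; lines are 95% counting intervals, filled points have an interval that excludes no change, and the lower end of Hist1h2br in D1 lies beyond the axis. In D1 cells 6 filled points lie below 0, and in D2 cells 1 lies below and 3 above.

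Counting intervals that excluded no change were found for 6 of 14 genes in D1 cells, all lower in BACHD, where 20.7% of all genes tested were lower by the same measure and 19.3% higher. In D2 cells they were found for 3 higher and 1 lower, with 17.5% and 17.8% among all genes. The median log2 ratio of the 14 genes was -0.27 in D1 cells (4 higher, 10 lower; all genes 0.00) and 0.03 in D2 cells (8 higher, 6 lower; all genes 0.01). A ratio of 2 or more with such an interval was reached by Hist1h2br alone, lower in D1 cells and higher in D2 cells. Among all genes 0.543% passed lower and 1.5% higher in D1 cells (2.04% either way), and 0.53% lower and 0.674% higher in D2 cells (1.2% either way).

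Across all 4 libraries, edgeR's quasi-likelihood test with terms for genotype and cell type called none of the 14 genes for genotype at a Benjamini-Hochberg adjusted p under 0.05, with 0.406% of all genes called (0.255% lower and 0.151% higher in BACHD). DESeq2 and limma also called 0 of them, where DESeq2 called 77 and limma 0 of the 14537 genes tested. At an unadjusted p under 0.05 edgeR had 2 of 14, both lower in BACHD (6.82% of all genes lower, 6.14% higher, 13% either way). DESeq2 had 0 and limma 4, and their shares of all genes at that level were not computed. The 2 genes from edgeR were Hist1h1c, with a log2 change of -0.31 ± 0.10 (SE; edgeR adjusted p = 0.263), and Hist2h4, with -0.56 ± 0.24 (edgeR adjusted p = 0.38). The change of Hist1h1c was -0.13 without the D1 BACHD library and -0.50 without the D2 BACHD library. For Hist3h2a the edgeR change was -0.01 ± 0.06, for Hist3h2ba -0.04 ± 0.10 and for Hist1h2bc -0.13 ± 0.09. After TMM scaling both BACHD libraries lay below both WT libraries for 4 of 14 genes (Hist1h1c, Hist2h4, Hist1h4k and Hist1h2bk), with 15.6% of all genes doing so, and above for 2 (Hist2h2aa1 and, only after the scaling, Hist2h2be), with 14.7%. The 1 residual degree of freedom is the interaction of genotype with cell type, and no pool was replicated. For each gene edgeR also borrows variance from the trend over all genes, weighted as a median of 6.67 degrees of freedom. Its p-values and SEs therefore rest on that trend and on the spread between these libraries, not on variation between pools.

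Markers of cortical glutamatergic neurons also moved in D1 cells. Their summed CPM was 28.3 in WT and 139.6 in BACHD D1 cells, and 2.96 and 5.13 in D2 cells, and 6 of 6 markers passed the 2-fold rule in D1. Oligodendrocyte markers summed to 325, 376, 332 and 397 CPM, and all 9 had a ratio above 1 in BACHD in each cell type. Astrocyte markers summed to 136, 187, 172 and 171 CPM. Markers shared by both types of medium spiny neuron summed to 11434, 10388, 12280 and 11000. The part of these markers in the histone ratios was not tested. All 7 D1 markers and all 5 D2 markers were called by edgeR in the labelled direction.

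Between D2 and D1 cells none of the 14 histone genes was called by edgeR, with 15.9% of all genes called (6.36% higher in D2 and 9.52% higher in D1), and 1 had an unadjusted p under 0.05, higher in D2 (12.4% of all genes; 28.3% either way). DESeq2 and limma called 0, where DESeq2 called 1351 of all genes and limma 1824 (FPKM plus 0.1) and 1626 (FPKM plus 1). They had 0 and 1 at an unadjusted p under 0.05, and their shares of all genes at that level were not computed. The gene from edgeR was Hist3h2a, with a log2 difference of D2 minus D1 of 0.15 ± 0.06 (SE; edgeR adjusted p = 0.146). Scaled by total counts it was 0.085, where the median over all genes moved from -0.002 to -0.07. With that scaling 0 of the 14 genes had an unadjusted p under 0.05. For Hist1h2bc the difference was 0.21 ± 0.09 (edgeR adjusted p = 0.189), and for Hist1h1c 0.20 ± 0.10 (edgeR adjusted p = 0.243). For Hist3h2ba it was 0.04 ± 0.10 (edgeR adjusted p = 0.834). Both D2 libraries lay above both D1 libraries after scaling for 3 of 14 genes (Hist3h2a, Hist1h2bc and Hist1h2be; 24.9% of all genes) and below for 0 (26.8%).

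The differences in Hist1h1c and Hist1h2bc rested on the BACHD libraries. Between WT libraries the log2 ratio of D2 to D1 was 0.03 (-0.11 to 0.18) for Hist1h1c and 0.05 (-0.08 to 0.18) for Hist1h2bc. Between BACHD libraries it was 0.38 (0.21 to 0.54) and 0.37 (0.23 to 0.51). Without the D1 WT library, edgeR called Hist1h1c higher in D2, at 0.45, with the lone D1 library assumed to vary like those of D2, and without the D1 BACHD library its difference was -0.04. For Hist3h2a the ratios were 0.11 (0.02 to 0.21) between WT and 0.19 (0.10 to 0.29) between BACHD libraries. Trim17 overlaps Hist3h2a on the same strand, shares 31.5% of the 50-base windows of its transcript, and had 31.1, 28.9, 39.1 and 37.9 CPM, higher in D2. How reads in the overlap were divided is not given in the sources used here.

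The ratios that passed the 2-fold rule were those of Hist1h2br, a gene with a near-identical copy. The coding sequences of histones of a type are almost alike, and a 50-base read from them can belong to several genes. Of the 56 deposited counts of the 14 genes 85.7% were not whole numbers, against 29.3% of those of all genes at 0.5 CPM. Counting tools that divide a read between several genes give such values, but the tool used here is not given. Of the 50-base windows of the transcript, 50% or more occurred in another gene in 6 of the 14 reported genes and in 20 of the other 40. Hist2h2be shared 0% of its windows, Hist2h4 1.01% and Hist1h1c 8.54%, so these 3 rest almost wholly on sequence of their own. Hist2h2aa1 shared 100%, Hist1h2bk 74.2% and Hist1h4k 71.5%, so the values of these genes rest mostly on sequence that also occurs in other genes.

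Hist1h2br shares 88.7% of its windows with Hist1h2bq. In D1 cells it had 36.2 estimated counts in WT and 0.0294 in BACHD, and in D2 cells 9.63 and 33.1, while Hist1h2bq had 0.978, 19.0, 19.7 and 2.33. The copies were high in opposite libraries. Hist1h2br read at least 11.9-fold lower in D1 BACHD than in D1 WT, against a floor of 3 counts per library, and 3.34-fold higher in D2 BACHD than in D2 WT. The sum of both copies was 37.2, 19.0, 29.3 and 35.4, and its log2 ratio was -0.94 (-1.83 to -0.11) in D1 and 0.29 (-0.46 to 1.05) in D2 cells. With near-identical copies summed into 12 units, no unit passed the 2-fold rule.

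Hist2h3c1, an H3 gene on chromosome 3, had 2.28 CPM in WT and 1.23 in BACHD D1 cells, and 1.98 and 3.49 in D2 cells. Its log2 ratio was -0.88 (-1.40 to -0.38) in D1 and 0.82 (0.43 to 1.21) in D2 cells. Every 50-base window of its transcript also occurs in Gm20634, an overlapping non-coding transcript, which had 334, 360, 482 and 251 estimated counts where Hist2h3c1 had 94.7, 51.2, 88.4 and 153. The summed counts of these overlapping genes were 429, 411, 571 and 404, with log2 ratios of -0.05 (-0.24 to 0.15) in D1 and -0.48 (-0.67 to -0.30) in D2 cells. In D2 cells the sum was lower in BACHD where Hist2h3c1 alone was higher. Most of the sum in every library is Gm20634, so it mainly follows that gene. Gm20634 also overlaps Hist2h2aa1 on the same strand, and the division of reads between these genes was not tested. Hist2h3c2, an H3 copy that shares 63.5% of its windows, had 48.1, 65.1, 71.0 and 53.8 estimated counts. Summed with Hist2h3c1 it gave log2 ratios of -0.29 (-0.65 to 0.08) and 0.40 (0.09 to 0.71).

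**Figure D4:**
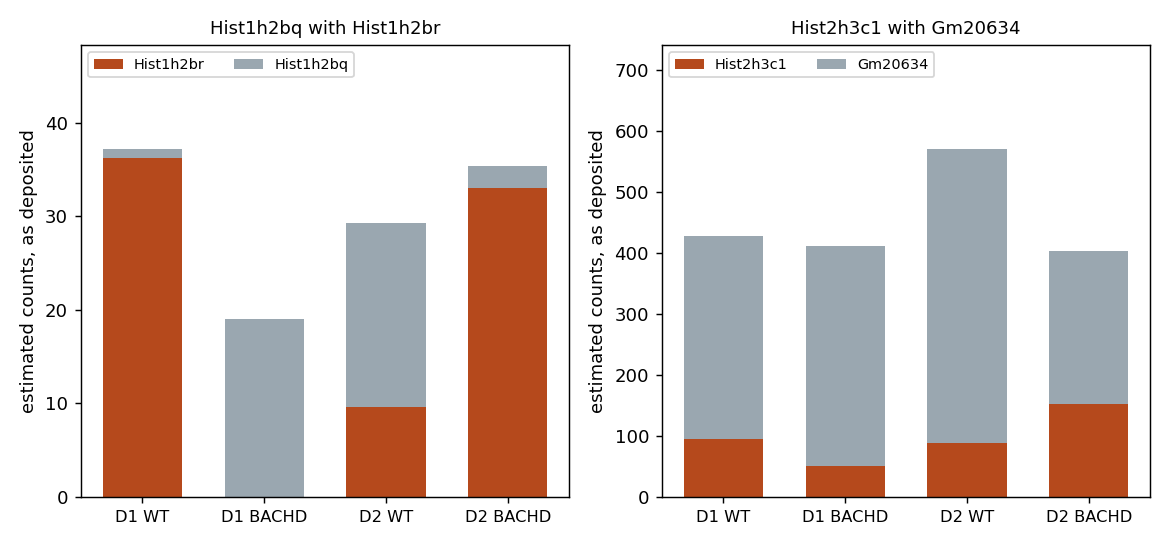
Estimated counts as deposited (bars start at 0) of Hist1h2br stacked with its near-identical copy Hist1h2bq (left) and of Hist2h3c1 stacked with the overlapping Gm20634 (right), in the 4 libraries. Hist1h2br is high where Hist1h2bq is low. The stacked heights run from 19.0 to 37.2 on the left and from 404 to 571 on the right. As a ratio of highest to lowest they vary less than the lower segments, and most of each right-hand stack is Gm20634.

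The genes that act on histone mRNA were measured in the same libraries. Of 23 genes of histone mRNA transcription and 3' processing, edgeR called 0 for genotype, and for cell type 1 higher in D2 and 2 higher in D1, where 15.9% of all genes were called for cell type and 0.406% for genotype. The 3 of 23 are close to that share, as are the 3 of 18 histone chaperone genes below, so the called genes are given as single genes. Slbp, which encodes the stem-loop binding protein, had 8.88, 9.36, 9.05 and 8.94 CPM (genotype edgeR adjusted p = 0.935). Npat, which encodes the coactivator of histone gene transcription, had 38.5, 32.6, 32.3 and 32.7 CPM. Lsm11, part of the U7 particle that cleaves histone pre-mRNA, was higher in D1 cells, with a log2 difference of D2 minus D1 of -0.69 ± 0.18 (edgeR adjusted p = 0.037). Cstf2t, a polyadenylation factor, was also higher in D1, at -0.25 ± 0.07 (edgeR adjusted p = 0.039), and Srrt, an RNA processing factor, was higher in D2, at 0.43 ± 0.06 (edgeR adjusted p = 0.002).

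Of 18 histone chaperone genes edgeR called 0 for genotype, and for cell type 2 were higher in D2 and 1 in D1. The histone chaperone Nap1l1 was higher in D2 by 0.30 ± 0.05 on the log2 scale (edgeR adjusted p = 0.005), as was the FACT subunit gene Ssrp1, by 0.23 ± 0.05 (edgeR adjusted p = 0.018). Hjurp, the chaperone of the centromeric H3, had a difference of -0.34 ± 0.08 (edgeR adjusted p = 0.03). Of 9 replication-independent histone genes 0 were called for genotype (0.406% of all genes) and 1 for cell type (15.9% of all genes). That gene was H2afv, higher in D2 by 0.29 ± 0.08 (edgeR adjusted p = 0.038). H2afz had 158, 134, 138 and 133 CPM, highest in D1 WT.

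Of 25 genes of the cell cycle and DNA replication, 15 passed the filter. None was called for genotype by edgeR (lowest adjusted p = 0.141), and 1 of the 15 was called for cell type (15.9% of all genes). This was Gins2, of the replicative helicase, higher in D2 by 0.25 ± 0.06 (edgeR adjusted p = 0.03). The proliferation marker Mki67 had 2.86, 2.42, 2.11 and 2.03 CPM, Top2a no more than 0.18 and Cdk1 no more than 0.024. Pcna, which also acts in repair, had 36.3, 33.0, 34.0 and 34.2 CPM. Other members of the list were higher. Gins2 had 51.1, 65.3, 60.9 and 70.1 CPM, and Mcm7, of the helicase that unwinds DNA in replication, 27.1, 26.2, 23.9 and 24.5. By mean CPM, 13 of the 25 genes were under 1, 9 from 1 to 10 and 3 at 10 or more.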

How the data were processed

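The authors deposited estimated counts and FPKM values, 1 of each per gene and library, for 37620 Ensembl identifiers. Reads were paired and 50 bases long, as the design text states. The submitters' processing notes name CASAVA 1.8.2. Aligner, counting tool, strand setting, annotation and build: not given in the sources used here. The libraries held from 41325647 to 44523622 estimated counts.

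The deposited estimated counts were rounded, scaled by TMM and tested with edgeR 4.0.16 (R 4.3.3) on all 14537 genes with 0.5 CPM in 2 libraries, with genotype and cell type as terms and Benjamini-Hochberg adjustment over all of them. Within a cell type, ratios have exact conditional binomial 95% intervals, and the 2-fold rule needs a ratio of 2 and an interval without 1. Counts under 3 were set to 3 for a ratio. Deposited FPKM values served for levels between genes. Symbols and coordinates are from GENCODE M21 on GRCm38, matched for 32897 identifiers, and promoters from RefSeq on GRCm38.p6. The build behind the counts may differ. The 13 annotated members without a match were not analysed here.

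The steps were tested on simulated data. Members and gene lists were chosen with earlier results of these data known. Named genes are the reported members, described in full for the 4 highest of each type and those past the 2-fold rule or an unadjusted p under 0.05. Other genes, the summed counts and the overlap of libraries were chosen after their values were seen. Alternatives were other scalings, filters, a ratio of 1.5, an adjusted p of 0.1, FPKM with pseudocounts of 0.1 and 1, limma 3.58.1, DESeq2 1.42.0, a model with only the term tested, each library left out and, added after seeing the data, near-identical copies summed.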

Additional observations from a re-analysis of the deposited data

Results flagged for a closer look

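The direction of the BACHD to WT log2 ratio differed between D1 and D2 cells, with intervals excluding no change in both, for 3 genes, and the difference was not tested. For Hist3h2ba it was -0.22 in D1 and 0.15 in D2 cells. For Hist1h2br it was -3.57 and 1.74, and for Hist2h3c1 -0.88 and 0.82. With the copy Hist1h2bq added to Hist1h2br the ratios were -0.94 (-1.83 to -0.11) and 0.29 (-0.46 to 1.05). With Gm20634, which holds most of the summed counts, added to Hist2h3c1 they were -0.05 (-0.24 to 0.15) and -0.48 (-0.67 to -0.30). With Hist2h3c2 added to Hist2h3c1 they were -0.29 (-0.65 to 0.08) and 0.40 (0.09 to 0.71). Hist3h2ba was not summed with another gene for a ratio, and its D2 interval was 0.01 to 0.28. With 1 library per cell type and genotype, a direction opposed between the cell types rests on 1 library each way.

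A pair of histone pseudogenes outside the protein-coding list also gave counts. Hist3h2bb-ps reached 0.182 CPM, and its sum with Hist3h2ba was a whole number in 4 of 4 libraries (943, 797, 869 and 950 counts). Sums were whole in 1 of 4 libraries for Hist1h2bq with Hist1h2br, and in 0 of 4 for Hist2h3c1 with Gm20634, Hist2h3c1 with Hist2h3c2 and Hist2h2aa1 with Hist2h2aa2. Hist1h2al reached 0.792 CPM, with 33.0, 23.4, 34.5 and 22.6 estimated counts, in the order used above.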

How the results depend on the processing

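The counts of members past the 2-fold rule, 1 in each cell type, rested on Hist1h2br. They were 0 and 0 at a filter of 1 CPM, with FPKM plus 1, with only the 2 members of whole counts and with copies summed. Without a filter they were 3 and 3 over every histone gene with a count, beside 670 (D1) and 434 (D2) of 23801 genes. At a ratio of 1.5 they were 2 (D1) and 3 (D2) of the 14 genes, beside 694 and 505 of 14537. With whole counts only the D2 median was -0.38, over 2 genes, and without a filter the D1 median was 0.01. Leaving out 1 library gave 0 to 2 members called for cell type (Hist1h1c and Hist1h2br without D1 WT), a genotype median of -0.33 (without D2 BACHD) to 0.061 (without D1 BACHD) and 0 members called for genotype, where every such fit holds only the term tested and called 0 of all genes, and a lone library of a level is assumed to vary like the others. Gene values that changed sign were small. Hist3h2ba for cell type was -0.027 with total counts, -0.025 and -0.024 with limma at pseudocounts of 0.1 and 1, and -0.067 to 0.16 with a library left out. With a library left out, genotype changes were -0.50 to -0.13 for Hist1h1c, -0.74 to -0.40 for Hist2h4, -0.15 to 0.074 for Hist3h2ba, -0.11 to 0.086 for Hist3h2a and -0.32 to 0.049 for Hist1h2bc, and the cell type difference of Hist1h1c was -0.036 to 0.45. The cause was not tested. Total-count scaling lowered cell type differences, from 0.15 to 0.085 for Hist3h2a and from 0.20 to 0.13 for Hist1h1c. The median of the 14 genes fell from 0.11 to 0.043, and that of all genes from -0.002 to -0.07. Limma on FPKM plus 0.1 gave 0.084 for Hist3h2a. Hist1h2br in D2 cells was 0.30 with FPKM plus 1. In all, 71 summary values and 301 gene values under the alternatives kept their direction, their side of the threshold or their size within the spread. Another 15 summary values moved, and of the gene values 11 changed sign, 1 moved and 1 was stronger. A median within the spread counted as kept even where its sign changed. Such medians were 0.01 for D1 without a filter and, without the D1 BACHD library, 0.061 for genotype and -0.043 for cell type.

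Genes called for genotype numbered 59, and 164 with total counts, 97 with DESeq2 size factors, 77 with the DESeq2 test, 150 at an adjusted p of 0.1 and 0 with limma, without a filter or with only the genotype term. For cell type they were 2309, and 3036 with total counts, 3125 at an adjusted p of 0.1, 2467 with DESeq2 size factors, 810 without a filter, 1454 with only that term, 1351 with DESeq2 and 748 to 1544 with a library left out. No paired analysis was possible because each group has 1 library and the labels give no shared replicate numbers. Genes under 1 CPM rest on fewer than 45 counts.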
